A study of Rattus norvegicus with 115 samples.

Results

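The cholesterol synthesis genes examined here were 8 named genes: Hmgcs1, Acat2, Sqle, Cyp51, Msmo1, Nsdhl, Dhcr7 and Srebf2. They were chosen by name, with earlier results of these data known. A gene was measured by the probe sets annotated to its symbol alone, and the probe set brightest in mean log2 over all arrays stood for it. This gave values for 7 of the 8 genes, out of 14217 genes measured. The annotation used here pairs no probe set with Hmgcs1 alone, so Hmgcs1 was not analysed here. The probe sets were 1372462_at for Acat2, 1387017_at for Sqle, 1367979_s_at for Cyp51, 1368275_at for Msmo1, 1392988_at for Nsdhl, 1368189_at for Dhcr7 and 1371979_at for Srebf2.

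Cells make cholesterol from acetyl-CoA through mevalonate, isoprenoid and sterol intermediates. Acat2, the cytosolic acetyl-CoA acetyltransferase, joins acetyl-CoA units, and Hmgcs1 adds a further unit to give HMG-CoA. Squalene epoxidase, Sqle, oxidises squalene before it is closed into the sterol rings. Cyp51, Msmo1 and Nsdhl then remove the methyl groups of lanosterol, and Dhcr7 reduces 7-dehydrocholesterol to cholesterol. Srebf2 encodes SREBP2, the membrane-bound transcription factor that is released when sterols are low and turns on these enzymes. Insig proteins hold SREBP2 back when sterols are abundant, while the LXR receptors, Nr1h2 and Nr1h3, turn on export genes such as Abca1 and Abcg1. In the brain cholesterol is made locally, since lipoproteins of the blood do not cross the blood-brain barrier, and myelin holds much of it. Dividing tumour cells need it for new membranes.

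RNA came from 9L tumours, grown from a rat line that the labels call glioblastoma and that was injected into the right caudate nucleus of Fisher rats, and from the contralateral hemisphere of the same animals. The rats were left untreated, or were irradiated 10 days after implantation with synchrotron X-rays, either as microbeams (MRT, 400 Gy in the beams and 18 Gy in the valleys between them) or as a broad beam (BB) at a dose just under that of the valleys. Both hemispheres came from tumour-bearing rats, so no group is normal brain. The 6 h arrays were 5 untreated, 9 MRT and 6 BB in each tissue. At 48 h the tumours were 4 untreated, 8 MRT and 4 BB, and the contralateral samples 4, 7 and 3. At 8 d the tumours were 4, 7 and 4 in that order, and the contralateral samples 4, 6 and 4. At 15 d each tissue had 4 MRT and 4 BB arrays and no untreated group. Levels below are log2 of the deposited array intensity, and differences are log2 differences ± standard error (SE) from limma. A gene was called when its p-value, adjusted over all 14217 genes, was under 0.05. The share of all genes called is given beside each count of members from the main fit. Most counts from altered fits stand without such a share. The share of all genes whose groups do not overlap was not computed for any comparison.

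The promoters are shown because the 7 measured members shared their lowest group in each tissue. RefSeq promoters of build GRCr8, 250 bases before to 50 after the start, matched Hmgcs1, Acat2, Cyp51, Msmo1, Nsdhl, Dhcr7 and Srebf2. No promoter matched Sqle, and Hmgcs1 has no values here, so these 7 are not the 7 measured members. Each motif was searched on both strands. The sterol response element in its full form, TCACNCCAC, was in 0 of the 7 promoters and in 1.12% of all 33469 promoters. Its first part, TCACNCC, a form chosen after the sequences were seen that every full element also holds, was in Acat2, Cyp51, Msmo1 and Srebf2, 4 of 7, and in 14.55% of all promoters. CCAAT, the site of the NF-Y factor that acts with SREBP2, was in Hmgcs1, Msmo1, Nsdhl and Srebf2, 4 of 7, and in 37.49% of all. GGGCGG, the Sp1 box, was in 6 of 7, all but Nsdhl, and in 33.06% of all. The E-box CACGTG was in 0 of 7 and in 6.42% of all. Member promoters held 57.3% (Nsdhl) to 71% (Msmo1) G and C, against a median of 51.7% over all promoters, and GGGCGG is itself rich in both. A match is a description of letters and not of binding. Below, capitals mark CCAAT or TCACNCC on either strand. Srebf2 lies at chr7:115543057-115543356, Msmo1 at chr16:29746863-29747162 and Nsdhl at chrX:155817110-155817409, each on the plus strand. Srebf2 and Msmo1 hold both motifs, and Nsdhl holds 5 CCAAT boxes and no TCACNCC.
Srebf2: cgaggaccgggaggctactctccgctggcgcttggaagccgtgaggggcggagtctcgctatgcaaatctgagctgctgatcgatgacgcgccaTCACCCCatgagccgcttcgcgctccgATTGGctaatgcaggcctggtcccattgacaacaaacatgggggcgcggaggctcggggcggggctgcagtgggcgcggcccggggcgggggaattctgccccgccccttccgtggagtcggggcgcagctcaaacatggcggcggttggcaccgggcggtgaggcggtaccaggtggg
Msmo1: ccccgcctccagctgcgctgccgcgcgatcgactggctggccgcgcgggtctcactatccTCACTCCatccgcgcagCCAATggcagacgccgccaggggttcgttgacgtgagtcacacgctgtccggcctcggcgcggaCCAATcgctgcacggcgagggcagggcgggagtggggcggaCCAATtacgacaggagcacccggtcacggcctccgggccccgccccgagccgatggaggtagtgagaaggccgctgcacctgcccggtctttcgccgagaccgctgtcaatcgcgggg
Nsdhl: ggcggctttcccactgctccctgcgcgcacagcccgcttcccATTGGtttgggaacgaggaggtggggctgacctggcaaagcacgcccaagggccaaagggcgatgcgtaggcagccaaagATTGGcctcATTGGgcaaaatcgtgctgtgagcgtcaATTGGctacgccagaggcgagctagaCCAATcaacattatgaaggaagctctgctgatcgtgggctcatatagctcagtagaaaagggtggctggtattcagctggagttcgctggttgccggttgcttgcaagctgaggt

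Several arrays stood apart. The untreated contralateral array of rat 18 at 48 h read Cyp51 at 8.85, Acat2 at 7.96 and Sqle at 8.36, against 10.88 to 11.29, 9.26 to 9.50 and 9.42 to 9.60 in the other 3 rats of its group. The same array was the highest of its group for Msmo1, Nsdhl and Srebf2, and its actin 3′ minus 5′ log2 difference, a measure of RNA integrity, was 0.244 against 1.44 to 1.88 in the other 3. It also held more Cdkn2a (6.30 against 4.32 to 4.59) and a higher mean of dividing-cell markers (7.08 against 6.15 to 6.34), and their part was not tested. Contralateral results for the members' brightest probe sets are therefore given with and without it. Those for their dimmer probe sets and for other genes include it. Among tumours, MRT rats 37 and 38 at 8 d had little Cdkn2a, a gene high in these tumours (median 10.93) and low contralaterally (median 4.39). BB rat 57 at 8 d had the highest mean of the members (10.27) and the lowest mean of the neuron markers (6.90) of its group. All 35 BB arrays carry a label set of their own, and in either tissue the BB effects cannot be told apart from that set. The tissues carried their defining markers: Mki67 had a median of 11.29 in tumours and 5.78 contralaterally, and Rbfox3, a neuron marker, 10.20 and 12.08. In bulk tissue, fewer cells of a type and less RNA per cell cannot be told apart.

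At 6 h after MRT no member differed from untreated tumours at the threshold (0 of 7, with 1.42% of all genes called). The differences ran from -0.41 for Dhcr7 to 0.03 for Cyp51, and the median was -0.26, against -0.01 over all genes. Without untreated rat 5, 1 member was called. With array weights 5 were called lower, Dhcr7 at -0.49, Sqle at -0.63, Nsdhl at -0.35, Acat2 at -0.37 and Srebf2 at -0.28. The share of all genes called with weights was not computed.

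At 48 h after MRT, 5 of the 7 members fell in the tumour: Acat2, Cyp51, Msmo1, Nsdhl and Dhcr7. Of all genes, 2.35% were called and 0.485% were called lower. Msmo1, the sterol methyl oxidase, read 11.50, 11.37, 11.24 and 11.13 in untreated tumours and 10.47 to 10.86 (median 10.64) after MRT. Every MRT tumour lay below every untreated tumour, and the difference was -0.66 ± 0.13 (adjusted p = 0.00285). Cyp51, the lanosterol demethylase, read 11.71, 11.67, 11.58 and 11.56 untreated and 10.68 to 11.29 (median 11.11) after MRT, again without overlap (-0.59 ± 0.14, adjusted p = 0.0113). Acat2 read 10.46, 10.46, 9.93 and 9.43 untreated and 8.77 to 9.37 (median 9.16) after MRT. The lowest untreated tumour, of rat 17, was just above the highest treated tumour, and the difference was -0.95 ± 0.22 (adjusted p = 0.00858). Nsdhl (-0.54 ± 0.12) and Dhcr7 (-0.66 ± 0.16) also had groups that did not overlap. How many of all genes had no overlap in these arrays was not computed. Sqle, at -0.66 ± 0.23, and Srebf2, at -0.53 ± 0.16, did not pass the test, although no untreated Srebf2 value (9.58 to 9.94) lay within the MRT range (8.84 to 9.34). The median of the 7 members was -0.66, against 0.01 over all genes. The calls of Acat2, Dhcr7 and Nsdhl depended on single control tumours: without untreated rat 15 2 members were called, Cyp51 and Msmo1, and without rat 16 these and Nsdhl. Macrophage markers moved at the same time, with 6 of 8 higher (median 1.86), while 0 of 12 neuron, 0 of 9 oligodendrocyte and 0 of 6 dividing-cell markers passed the test. Their part in the result was not tested. With the neuron markers as a covariate Cyp51 stood at -0.59 and Acat2 at -1.09.

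By 8 d after MRT all 7 members had fallen, from -0.49 for Cyp51 to -1.40 for Sqle, but 47.8% of all genes were called and 26.1% were called lower at that time. Sqle read 10.66, 10.57, 10.29 and 10.27 in untreated tumours and 8.59 to 9.53 (median 9.00) after MRT, without overlap. Its level was 0.378 times the untreated level (-1.40 ± 0.24, adjusted p = 3.6e-06). Acat2 read 9.82, 9.59, 9.55 and 9.42 untreated and 8.18 to 8.65 (median 8.50) after MRT. This was 0.456 times the untreated level, again without overlap (-1.13 ± 0.22, adjusted p = 4.23e-05). Srebf2, the regulator, read 9.68, 9.57, 9.52 and 9.39 untreated and 8.63 to 9.19 (median 8.82) after MRT (-0.66 ± 0.16, adjusted p = 0.0007). Every treated tumour was below every untreated tumour in this gene too. Msmo1 (-0.66 ± 0.14), Nsdhl (-0.56 ± 0.13) and Dhcr7 (-0.55 ± 0.16) did not overlap either. How many of all genes had no overlap in these arrays was not computed. Cyp51 did overlap, since MRT rat 38 read 10.76 and untreated rat 28 read 10.65 (-0.49 ± 0.14, adjusted p = 0.00404). The count stayed at 7 without any single untreated tumour and without MRT rats 37 and 38. The median of the members was -0.66, against -0.04 over all genes.

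**Figure D1:**
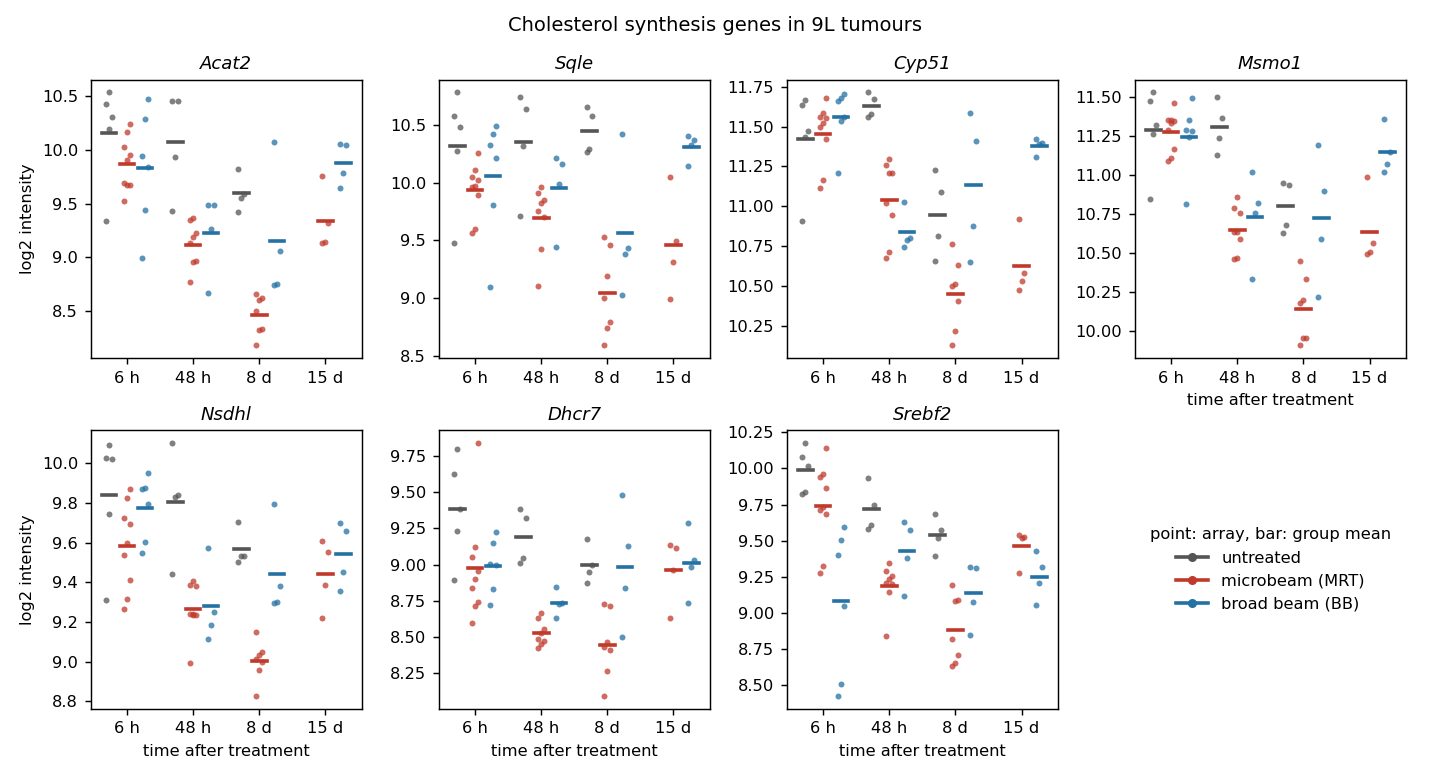
Log2 intensity of the 7 measured members in each tumour array (points) by time after treatment, with group means as bars, for untreated, MRT and BB tumours. The MRT group at 8 d has the lowest mean in every panel, and its Sqle values of 8.59 to 9.53 lie below all 4 untreated tumours of that time.

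The makeup of the MRT tumours at 8 d differed from that of the untreated tumours in the same arrays. All 8 macrophage markers (median 2.19), 7 of 7 T and NK cell markers (2.60), 9 of 9 oligodendrocyte markers (1.57) and 10 of 12 neuron markers (1.43) were higher. All 6 dividing-cell markers were lower (median -1.50), and the Cdkn2a difference was -3.82. The mean of the T and NK cell markers ran from 9.39 to 11.10 after MRT and from 6.56 to 8.60 untreated, and that of the dividing-cell markers from 8.05 to 10.13 and from 10.64 to 10.91. Their part in the fall of the members was not tested beyond the neuron and oligodendrocyte covariates. With neuron markers in the model 6 of the 7 members were called, Sqle at -1.01 and Acat2 at -0.68, and Dhcr7 (-0.43) was not. With oligodendrocyte markers Sqle stood at -0.94, Acat2 at -0.56 and Dhcr7 at -0.41, the last not called. The share of all genes called with these covariates was not computed.

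After BB 1, 3 and 1 of the 7 members were called in tumours at 6 h, 48 h and 8 d. At 6 h only Srebf2 was called (1 of 7, with 17.43% of all genes called). Srebf2 read 10.18, 10.08, 10.02, 9.84 and 9.82 in untreated tumours and 8.42 to 9.60 (median 9.22) after BB, without overlap (-0.91 ± 0.16, adjusted p = 0.000103). Without untreated rat 5, 2 members were called. The BB values fell apart into a lower pair, 8.42 and 8.51 in rats 48 and 46, and 4 values from 9.04 to 9.60. At 48 h Cyp51 (-0.79 ± 0.16), Msmo1 (-0.58 ± 0.15) and Nsdhl (-0.52 ± 0.14) were lower, 3 of 7, where 2.6% of all genes were called and 1.22% were called lower. Cyp51 read 11.03, 10.80, 10.79 and 10.75 after BB, all below the untreated 11.56 to 11.71 (adjusted p = 0.00556). The call of Cyp51 held without any single array of these groups. The calls of Msmo1 and Nsdhl were lost, leaving 1, without untreated rat 15, 16 or 18 or BB rat 51, 52 or 53. The array of rat 53 had a Gapdh 3′ minus 5′ difference of 2.35, the highest of all 115 arrays. At 8 d only Sqle was lower (-0.88 ± 0.27, adjusted p = 0.0146; 22.9% of all genes called). Its BB values were 10.42, 9.44, 9.38 and 9.03, and the highest, of rat 57, lay within the untreated range of 10.27 to 10.66. Without rat 57 the count was 2, and without rat 55 it was 0.

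**Figure D2:**
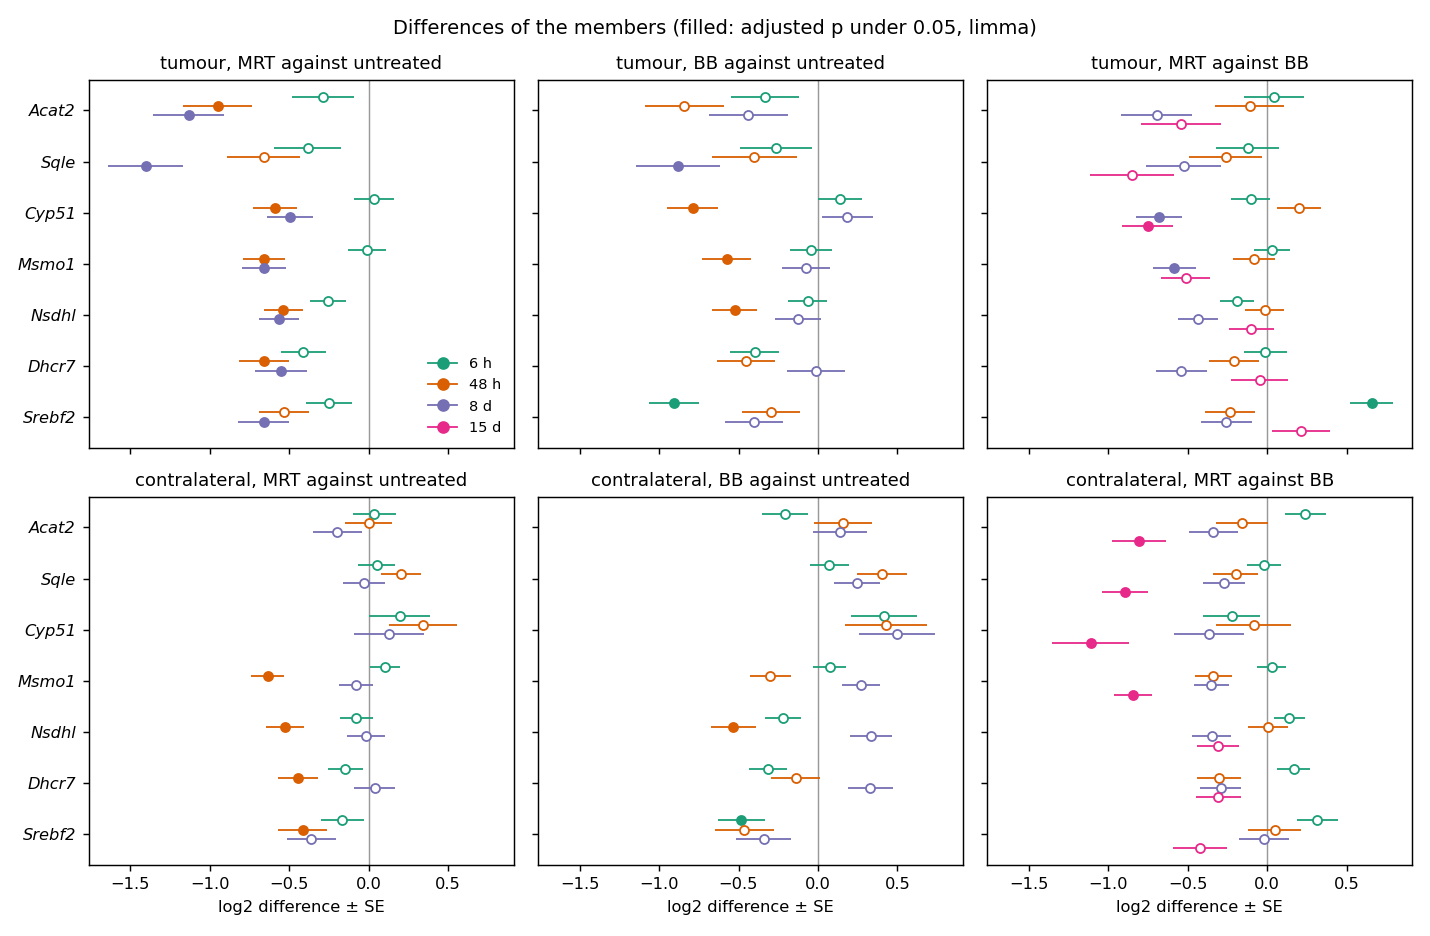
Log2 difference ± SE of each member for MRT against untreated, BB against untreated and MRT against BB, in tumour (upper) and contralateral (lower) samples, with time in colour and filled points where the adjusted p was under 0.05. All 7 tumour points of MRT against untreated at 8 d are filled, from -1.40 for Sqle to -0.49 for Cyp51, and contralateral points at 15 d reach -1.11.

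Set directly against each other, MRT and BB tumours differed in few members. At 6 h Srebf2 was higher after MRT (0.66 ± 0.13, adjusted p = 0.000684; 1 of 7, 15.7% of all genes called). Its MRT values, 9.28 to 10.14 (median 9.73), overlapped the BB values. At 48 h no member was called by limma (0 of 7), and 0% of all genes were (515 genes at an unadjusted p under 0.05). Differences there ran from -0.26 for Sqle to 0.20 for Cyp51. At 8 d Cyp51 (-0.68 ± 0.14, adjusted p = 0.0167) and Msmo1 (-0.58 ± 0.14, adjusted p = 0.0216) were lower after MRT, 2 of 7, with 1.27% of all genes called and 0.281% called lower. All 7 differences were below 0, with a median of -0.54 against -0.01 over all genes. These 2 calls rested on few BB arrays: without rat 54, 56 or 57 the count was 0, and without rat 55 it was 5. At 15 d only Cyp51 was called (-0.75 ± 0.16, adjusted p = 0.00525; 3.05% of all genes called). It read 10.92, 10.58, 10.53 and 10.47 after MRT and 11.42, 11.39, 11.39 and 11.31 after BB, without overlap. Its other probe set did not show this and stood at 0.30 (adjusted p = 0.394). Sqle was at -0.85 ± 0.27 and Msmo1 at -0.51 ± 0.15 without a call, and without MRT rat 40 the count was 3.

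The time course showed how the members moved within each treatment. In untreated tumours Cyp51 (-0.48 ± 0.15), Msmo1 (-0.49 ± 0.15) and Srebf2 (-0.45 ± 0.17) were lower at 8 d than at 6 h, 3 of 7, with 29.2% of all genes called and 13.2% called lower. Without untreated rat 5 at 6 h, which was the lowest of its group in all 7 members, the count was 6, and without rat 4 at 6 h or rat 28 at 8 d it was 1. Over the same interval 9 of 9 oligodendrocyte and 11 of 12 neuron markers were lower in these untreated tumours. In MRT tumours all 7 members were lower at 8 d than at 6 h (33% of all genes called, 15.8% lower). The differences were -1.41 ± 0.18 for Acat2, -1.14 ± 0.11 for Msmo1 and -1.003 ± 0.12 for Cyp51. From 8 d to 15 d after MRT, 5 of 7 rose (27.9% called, 16.1% higher): Acat2 (0.88 ± 0.22), Srebf2 (0.58 ± 0.16), Dhcr7 (0.52 ± 0.16), Msmo1 (0.50 ± 0.14) and Nsdhl (0.44 ± 0.13). Acat2 read 9.76, 9.32, 9.14 and 9.14 at 15 d, all above the 8 d values of at most 8.65. Cyp51 (0.18 ± 0.14) and Sqle (0.42 ± 0.24) did not pass the test. Without MRT rat 40, the highest of the 15 d tumours for Acat2, Sqle, Cyp51 and Msmo1, 3 members were called. Over the same interval 5 of 6 dividing-cell markers were higher and the Cdkn2a difference was 3.05, and their part was not tested. In BB tumours Acat2 (-0.67 ± 0.23), Cyp51 (-0.43 ± 0.15) and Msmo1 (-0.52 ± 0.14) were lower at 8 d than at 6 h (16.2% of all genes called, 7.81% lower), and the count was 1 without rat 54, 0 without rat 55 and 5 without rat 57. The dimmer Cyp51 probe set stood at -0.19 there (adjusted p = 0.46). From 8 d to 15 d after BB 0 of 7 were called (1.7% of all genes), with a median of 0.25, and 3 were called without rat 57.

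The other enzymes of the pathway were followed through a list of 14, of which 12 were analysed here. At 48 h after MRT 4 of the 12 fell and 0 rose in the tumour, where 0.485% of all genes were called lower: the sterol reductase Tm7sf2 (-0.63 ± 0.15), squalene synthase Fdft1 (-0.63 ± 0.15), Hsd17b7 (-0.79 ± 0.20) and farnesyl diphosphate synthase Fdps (-0.73 ± 0.18). At 8 d 5 fell and 1, Lbr, rose, a share of calls near the 47.8% of all genes called at that time. Among those that fell were Fdps (-1.19 ± 0.19), mevalonate kinase Mvk (-1.05 ± 0.17), lanosterol synthase Lss (-1.29 ± 0.23) and Idi1 (-1.16 ± 0.25). From 8 d to 15 d Fdps (1.03 ± 0.19), Mvk (0.76 ± 0.17) and Idi1 (0.94 ± 0.25) rose, 4 of 12 in all (16.1% of all genes higher), while Lbr fell (-1.09 ± 0.24). After BB 1 of 12 fell at 48 h, Tm7sf2 (-0.63 ± 0.17), and 3 fell at 8 d, Mvk, Fdps and Lss, against 1.22% and 14.5% of all genes.

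Of 8 measured genes that control SREBP or take up sterols, from a list of 11, Insig1, itself a target of SREBP2, fell after MRT at 48 h (-0.89 ± 0.21) and 8 d (-1.17 ± 0.22). At 8 d the site-1 protease Mbtps1 fell as well (-1.06 ± 0.18), and the sterol carrier Stard4 (1.06 ± 0.18) and Srebf1 (1.23 ± 0.26), which drives fatty acid genes, rose. With Insig1 these made 4 of 8 called at 8 d, near the 47.8% of all genes called then (26.1% lower, 21.8% higher). At 48 h Insig1 was the only gene of the list called, with 2.35% of all genes called. Of 12 genes of sterol efflux, storage and turnover, 8 were higher and 0 lower at 8 d after MRT, with a list median of 1.12 and 21.8% of all genes called higher. The first by p were the exporters Abcg1 (1.77 ± 0.23) and Abca1 (1.48 ± 0.28), the lipoprotein Apoe (1.53 ± 0.32) and the receptor Nr1h3 (1.07 ± 0.23). These genes are also active in macrophages, whose markers rose in the same arrays, and the part of that rise was not tested. At 6 h, when no member was called, cholesterol 25-hydroxylase Ch25h rose in the tumour (1.76 ± 0.36 after MRT and 1.44 ± 0.39 after BB). At 15 d against 8 d after MRT Abca1 (-1.08 ± 0.28), Mylip (-0.71 ± 0.19) and Abcg1 (-0.73 ± 0.23) fell, 3 of 12. Of all genes, 27.9% were called over that interval and 11.8% were called lower. Of 12 fatty acid synthesis genes 5 fell and 2 rose in MRT tumours at 8 d, near the shares of all genes then called lower (26.1%) and higher (21.8%), with the desaturases Fads1 (-1.38 ± 0.18) and Fads2 (-1.91 ± 0.30) among the former.

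**Figure D3:**
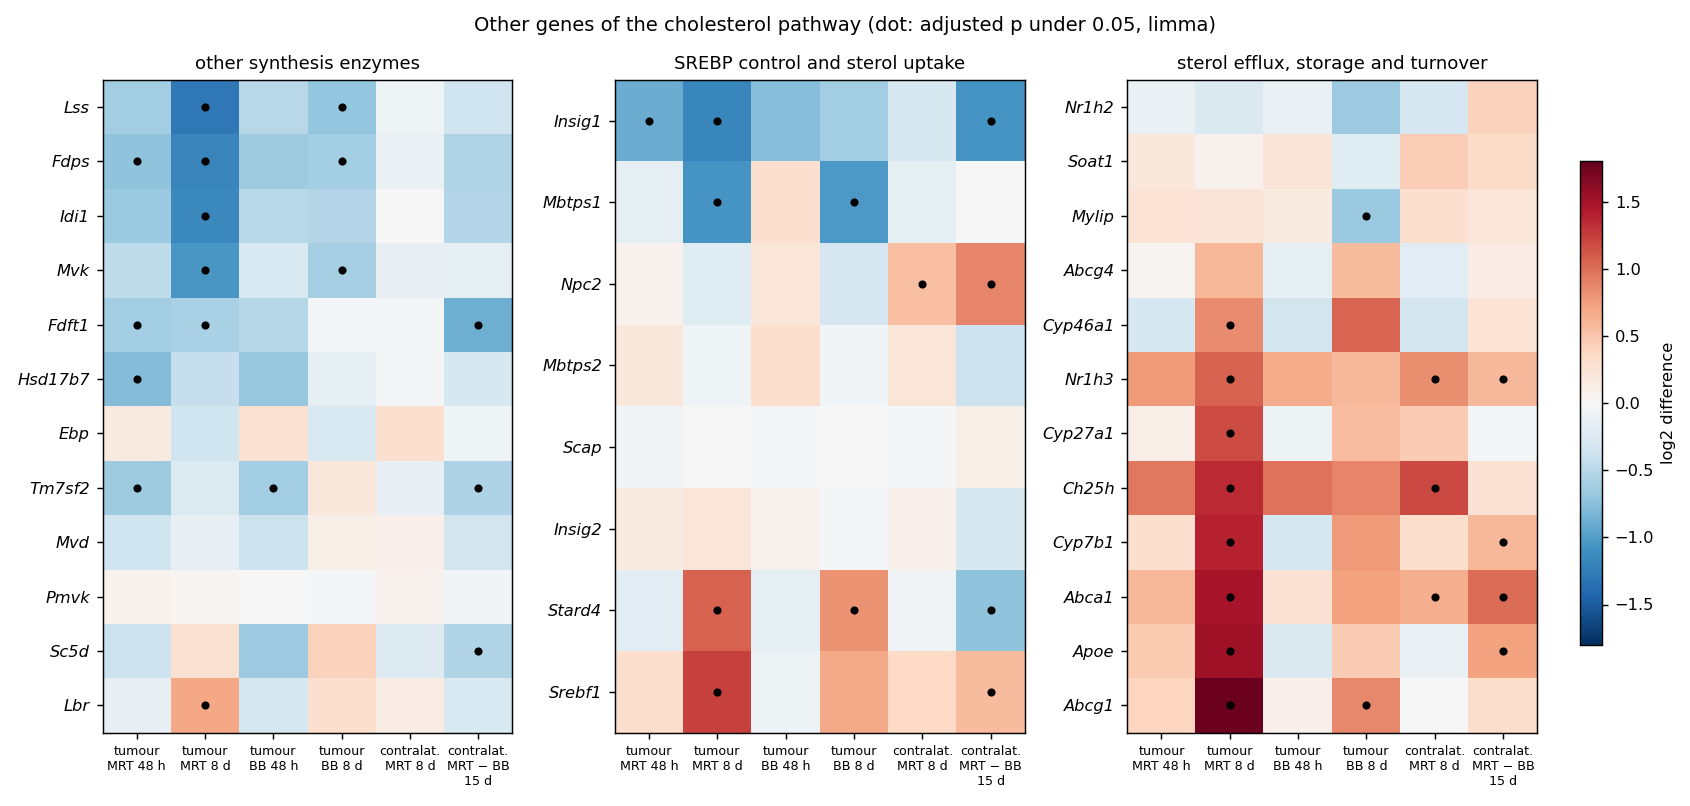
Log2 difference (colour) of the other pathway genes in 6 comparisons, with a dot where the adjusted p was under 0.05. In MRT tumours at 8 d the enzymes Lss (-1.29) and Fdps (-1.19) are among the lowest and the exporters Abcg1 (1.77) and Abca1 (1.48) among the highest.

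Contralaterally no member was called at 6 h after MRT (0 of 7, 8.22% of all genes called; 0 also without rat 18). At 48 h Msmo1 (-0.64 ± 0.11), Nsdhl (-0.53 ± 0.12), Dhcr7 (-0.44 ± 0.13) and Srebf2 (-0.42 ± 0.15) were lower, 4 of 7, with 32.2% of all genes called and 19% called lower. Msmo1 read 11.68, 11.30, 10.92 and 10.85 untreated and 10.37 to 10.85 (median 10.53) after MRT. The lowest untreated and the highest MRT value were the same to 2 decimals, and the 11.68 was that of rat 18. Without rat 18 the share of all genes called was 8.54%, and 4 members were again lower: Msmo1 (-0.47 ± 0.10), Dhcr7 (-0.45 ± 0.14), Nsdhl (-0.31 ± 0.10) and Acat2 (-0.36 ± 0.11). Srebf2 then stood at -0.24 ± 0.16 without a call. When only the 2 groups compared were fitted, rat 18 included, 0 of 7 were called, with Msmo1 at -0.64 (adjusted p = 0.0617). With rat 18 included, the dimmer probe set of Nsdhl did not fall here (0.13, adjusted p = 0.504). That of Cyp51 did (-0.50, adjusted p = 0.00862), where the brighter stood at 0.34. Rat 18 read 6.00 in the dimmer Nsdhl probe set, against 7.31 to 7.52 in the others, and 8.85 in the brighter of Cyp51. No fit of the dimmer probe sets left out rat 18, so these disagreements may rest on that array. In the same arrays the mean of the macrophage markers ran from 5.87 to 6.65 untreated and from 7.72 to 7.97 after MRT, without overlap, and 6 of 8 were called higher. The mean of the dividing-cell markers ran from 6.77 to 7.09 after MRT, above the other 3 untreated samples (6.15 to 6.34) and around rat 18 (7.08). Their part in the result was not tested. At 8 d 0 of 7 were called (7.91% of all genes, and 0 members also without rat 18), with a median of -0.03.

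After BB, Srebf2 was lower contralaterally at 6 h (-0.48 ± 0.15, adjusted p = 0.0139; 1 of 7, 21.6% of all genes called). It read 10.75, 10.72, 10.42, 10.21 and 10.07 untreated and 9.59 to 10.28 (median 10.00) after BB, and the groups overlapped. The count was 0 without untreated rat 3 or 4 and 2 without rat 1 or 5. Without rat 18, which enters through the shared spread, Dhcr7 was lower too (-0.31 ± 0.12) and Cyp51 higher (0.42 ± 0.12), with 31.8% of all genes called; with rat 18 in the fit, the dimmer Cyp51 probe set stood at -0.18 (adjusted p = 0.395). At 48 h Nsdhl alone was lower (-0.53 ± 0.14; 21.6% of all genes called), and without rat 18 no member was called (Nsdhl at -0.32 ± 0.12) and 3.52% of all genes were. The dimmer Nsdhl probe set went the other way, at 0.42 (adjusted p = 0.0898), with rat 18 in the fit. It read 6.00 in rat 18 and 7.31 to 7.52 in the other untreated samples, and was not fitted without that array. The count was 3, 5 and 4 without untreated rat 15, 16 and 17, and 0 without BB rat 52. At 8 d 0 of 7 were called (5.94% of all genes). Without rat 18, which is in neither group, Cyp51 (0.50 ± 0.14) and Nsdhl (0.33 ± 0.11) were higher at 8 d, with 12.1% of all genes called. With it in the fit, the dimmer probe set stood at -0.12 for Cyp51 and at 0.39 for Nsdhl, neither called.

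Of the 4 times, 15 d had the most members that differed between MRT and BB contralateral samples. There Acat2, Sqle, Cyp51 and Msmo1 were lower after MRT, 4 of 7, where 5.87% of all genes were called and 1.75% were called lower. The MRT and BB values did not overlap in any of the 7 members. The share of all genes without overlap in these arrays was not computed. Msmo1 read 10.36, 10.29, 10.11 and 10.00 after MRT and 11.16, 11.07, 11.01 and 10.87 after BB (-0.84 ± 0.12, adjusted p = 2.87e-06). Sqle read 9.18, 9.11, 8.76 and 8.73 after MRT and 9.96, 9.88, 9.77 and 9.73 after BB (-0.89 ± 0.15, adjusted p = 3.58e-05). In both genes the gap between the groups was wider than the range within either.
Acat2 read 8.79, 8.45, 8.44 and 8.40 after MRT and 9.40, 9.34, 9.32 and 9.26 after BB (-0.81 ± 0.17, adjusted p = 0.00147). Cyp51 read 10.42, 10.30, 10.03 and 9.99 after MRT and 11.48, 11.33, 11.29 and 11.10 after BB, 0.463 times the BB level (-1.11 ± 0.24, adjusted p = 0.00224). The other probe set of Cyp51 was at -0.08 (adjusted p = 0.868), so this gene's difference was seen with the brighter probe set only. Dhcr7 (-0.31 ± 0.15), Nsdhl (-0.31 ± 0.13) and Srebf2 (-0.42 ± 0.17) did not pass the test. Without rat 18, which is in neither group, the same 4 genes were called and 11.4% of all genes were.

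With no untreated group at 15 d, it cannot be told whether MRT lowered the members or BB raised them against untreated tissue. The 2 groups are also from different label sets. In the same arrays the BB samples held more Cdkn2a (4.91 to 8.07, against 4.32 to 5.83 after MRT) and dividing-cell markers (mean 6.59 to 8.83 against 6.54 to 7.19). Of the macrophage markers, 4 of 8 were higher and 1 lower after MRT, while 0 of 9 oligodendrocyte markers passed the test. The part of these in the result was not tested; with neuron or oligodendrocyte markers in the model the same difference for Msmo1 was -0.84. At the earlier times no member was called between MRT and BB contralateral samples: 0 of 7 at 6 h (5.39% of all genes called), at 48 h (1.94%) and at 8 d (3.02%). Without rat 18 the counts were 1 (Acat2, 0.24 ± 0.08), 1 (Msmo1, -0.34 ± 0.10) and 3 (Acat2, Msmo1 and Nsdhl, all lower after MRT), with 13.8%, 3.81% and 5.63% of all genes called.

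**Figure D4:**
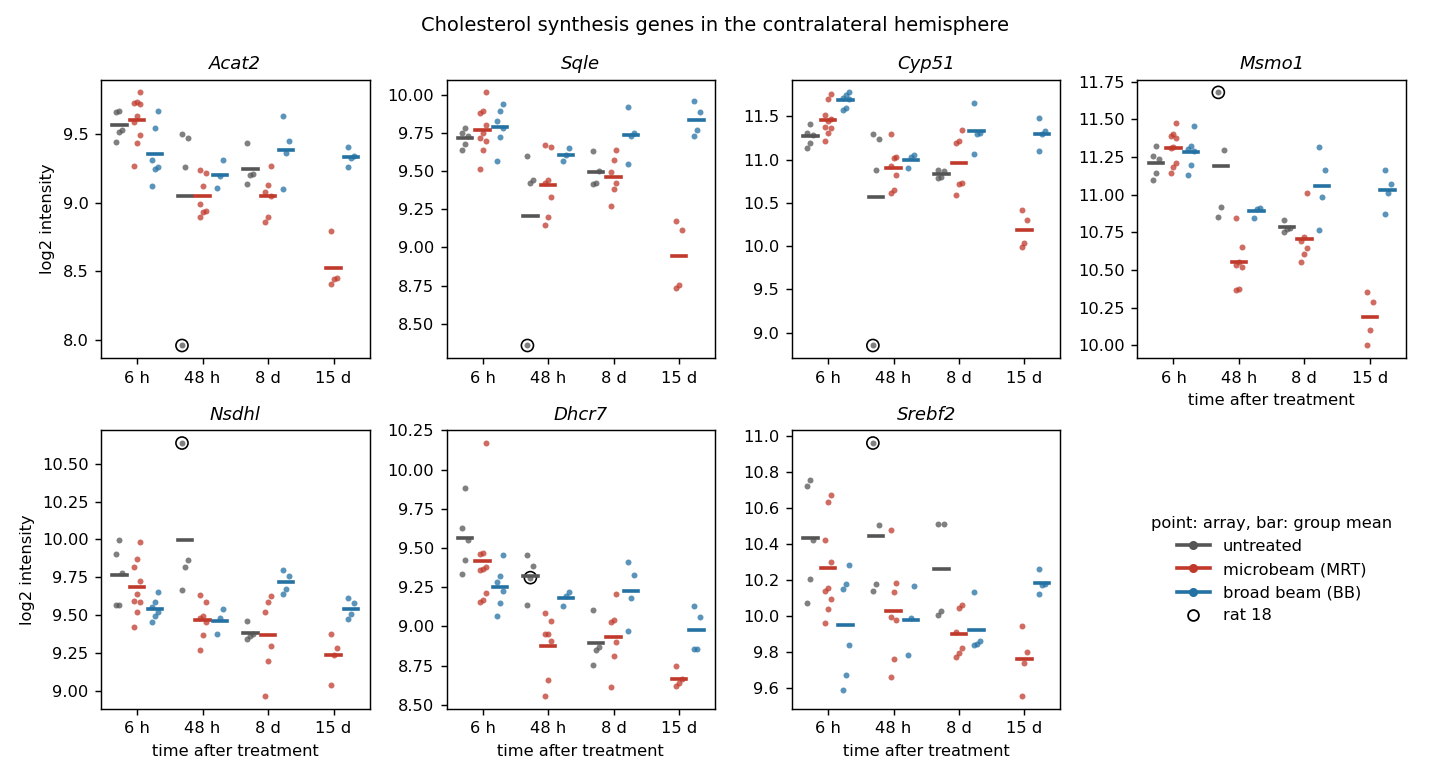
Log2 intensity of the 7 measured members in each contralateral array (points) by time after treatment, with group means as bars and the untreated array of rat 18 circled. At 15 d the MRT and BB samples do not overlap in any panel (the share of all genes without overlap was not computed). The array of rat 18 lies far below its group for Acat2, Sqle and Cyp51 (7.96, 8.36 and 8.85).

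Within treatments the contralateral members were lower at 8 d than at 6 h after MRT in 5 of 7 cases (12.3% of all genes called, 4.08% lower): Msmo1 (-0.61 ± 0.09), Acat2 (-0.55 ± 0.13), Dhcr7 (-0.48 ± 0.11), Srebf2 (-0.37 ± 0.13) and Nsdhl (-0.32 ± 0.10). The dimmer Nsdhl probe set stood at -0.03 there (adjusted p = 0.942). Without rat 18 all 7 were lower, with 18.3% of all genes called. In untreated samples over the same interval Dhcr7 (-0.67 ± 0.13) and Msmo1 (-0.43 ± 0.11) were lower (2 of 7, 1.86% of all genes called, 0.577% lower). Without any of 8 single arrays of these groups, 1 was called. Without rat 18 Cyp51 (-0.43 ± 0.13) and Nsdhl (-0.38 ± 0.10) joined them, with 4.35% of all genes called. With rat 18 in the fit, the dimmer probe sets of Cyp51 and Nsdhl stood at -0.24 and -0.13, neither called. From 8 d to 15 d after MRT Msmo1 was lower (-0.52 ± 0.11, adjusted p = 0.0312), 1 of 7, at a time when 0.0633% of all genes, 9 in number, were called. It read 10.55 to 11.01 (median 10.67) at 8 d and at most 10.36 at 15 d. The call was lost without MRT rat 41 or 42. Without rat 18, in neither group, 4 members were lower, Cyp51 (-0.78 ± 0.12), Acat2 (-0.52 ± 0.10), Sqle (-0.52 ± 0.10) and Msmo1 (-0.52 ± 0.09), with 0.619% of all genes called. With rat 18 in the fit, the dimmer Cyp51 probe set stood at -0.11 over this interval (adjusted p = 0.907). After BB no member was called from 6 h to 8 d (0 of 7, 3.18% of all genes called) or from 8 d to 15 d (0 of 7, 1.17%), with or without rat 18.

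The other pathway genes in the contralateral hemisphere at 15 d included 3 of 12 further enzymes lower after MRT than after BB, Fdft1 (-0.87 ± 0.15), Sc5d (-0.55 ± 0.13) and Tm7sf2 (-0.55 ± 0.17), and 0 higher (1.75% of all genes lower). Insig1 (-1.06 ± 0.19) and Stard4 (-0.73 ± 0.13) were lower, and Npc2 (0.87 ± 0.18) and Srebf1 (0.56 ± 0.16) higher. Of the efflux list 4 of 12 were higher, Apoe (0.72 ± 0.15), Abca1 (1.01 ± 0.23), Cyp7b1 (0.60 ± 0.16) and Nr1h3 (0.58 ± 0.18), and 0 lower (4.11% of all genes higher). Ch25h rose contralaterally at 6 h after both MRT (2.49 ± 0.22) and BB (1.67 ± 0.24). At 8 d after MRT, when no member was called, Nr1h3 (0.84 ± 0.16), Ch25h (1.19 ± 0.26) and Abca1 (0.65 ± 0.21) were higher than untreated (5.71% of all genes higher).

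Without treatment the 2 tissues differed in 4 members, averaged over 6 h, 48 h and 8 d. Sqle (0.90 ± 0.12), Acat2 (0.66 ± 0.12) and Cyp51 (0.44 ± 0.12) were higher in tumour and Srebf2 (-0.63 ± 0.10) was lower. Most genes differed between these tissues (81.1% called, 40.5% higher in tumour). Srebf2 read 9.39 to 10.18 in untreated tumours and 10.00 to 10.96 contralaterally, with a small overlap. With rat 18 included, the dimmer probe sets differed from this for 2 genes. That of Cyp51 stood at -0.005 (adjusted p = 0.962). That of Nsdhl was higher in tumour (0.89, adjusted p = 3.45e-12), where the brighter was not called. The dimmer Srebf2 probe set was lower in tumour too (-0.28, adjusted p = 1.01e-05). Without rat 18 Sqle was at 0.81 ± 0.12, Acat2 at 0.54 ± 0.11, Cyp51 at 0.25 ± 0.09 and Srebf2 at -0.57 ± 0.10, all called. Differences between the tissues also depend on the normalization. Msmo1 and Nsdhl, not called here, turned direction with arrays shifted to a common median.

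Whether the treatment effects themselves differed between the tissues was tested as an interaction over all 115 arrays. At 6 h no member differed, for MRT (0 of 7, 0.886% of all genes called) or BB (0 of 7, 1.53%), and 0 were called for either without rat 18. At 8 d the MRT effect was lower in tumour than contralaterally for 5 of 7, Sqle (-1.38 ± 0.28), Acat2 (-0.94 ± 0.28), Dhcr7 (-0.59 ± 0.21), Msmo1 (-0.58 ± 0.18) and Nsdhl (-0.55 ± 0.17), where 37% of all genes were called and 21.6% were called lower. Without rat 18 Cyp51 (-0.62 ± 0.19) was called as well, with 40.7% of all genes called. With the neuron or the oligodendrocyte markers as a covariate 1 of the 7 was called. The share of all genes called with these covariates was not computed, so the drop cannot be set against all genes. For BB at 8 d Sqle alone differed (-1.12 ± 0.31, adjusted p = 0.0161; 7.76% of all genes called), and the count was 0 without BB tumour 55 and 3 without BB tumour 57. At 48 h Acat2 and Cyp51 were called for MRT (-0.95 ± 0.27 and -0.93 ± 0.26; 2.48% of all genes called, 1.03% lower) and for BB (-0.998 ± 0.32 and -1.22 ± 0.31; 5.7% called, 1.24% lower). These were the genes that were low in the rat 18 array, and without it 0 of 7 were called for either treatment. With rat 18 in the fit, the dimmer Cyp51 probe set stood at -0.12 for MRT and 0.05 for BB, neither called. That of Nsdhl stood at -0.88 and -0.96, both called, with rat 18 at 6.00 against 7.31 to 7.52 in its group. Neither dimmer probe set was fitted without rat 18. For MRT the count was also 0 without untreated tumour 15 or 16 and 1 without untreated tumour 18. For BB it was 1 without any of 8 other single arrays.

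The order of the group means was shared at its lower end. In each of the 7 members the lowest tumour group was MRT at 8 d, and the lowest contralateral group was MRT at 15 d. The highest tumour group was untreated at 6 h for Acat2 (mean 10.16), Nsdhl (9.84), Dhcr7 (9.39) and Srebf2 (9.99), untreated at 48 h for Cyp51 (11.63) and Msmo1 (11.31), and untreated at 8 d for Sqle (10.45). A neighbouring pair was counted as apart when its means differed by more than the larger of the 2 standard deviations. This rule does not measure overlap of the values. Of 10 neighbouring pairs of tumour groups, at most 2 were apart in any member, and for Sqle 0 were. Contralaterally at most 3 pairs were apart, in Msmo1.

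Across the 11 tumour group means the members correlated with each other at a median r of 0.80 over 21 pairs, and at 0.86 over the 15 pairs without Srebf2. Contralaterally the medians were 0.71 and 0.77. These are descriptions over groups that share arrays, animals and tissue makeup. Acat2 (0.99) and Msmo1 (0.96) lay closest to the mean pattern of the members in tumours, and Srebf2 (0.76) farthest. The same gene was farthest contralaterally (0.60). Outside the members, the 5 genes whose tumour pattern was most like the members' mean were Idi1 (0.96) and Fdps (0.95), both enzymes of isoprenoid synthesis, Igf2 (0.90), Hmgn2 (0.89) and Fdft1 (0.88). They were taken from 7101 genes above the median intensity. The contralateral 5 were Acss2 (0.91), which makes acetyl-CoA, Prps1 (0.89), Snap91 (0.88), Fdft1 (0.87) and Zfp422 (0.86). In each of these 10 cases the lowest group was the same as for the members, MRT at 8 d in tumours and MRT at 15 d contralaterally.

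Of the 7 members, 3 had a second, dimmer probe set, and it did not always follow the first. For Nsdhl both fell in MRT tumours at 48 h (-0.75 for the dimmer, adjusted p = 0.0142) and at 8 d (-0.84, adjusted p = 0.000252). From 6 h to 8 d after MRT the dimmer stood at -0.15 in tumours (adjusted p = 0.454), where the brighter fell. In the rat 18 array it was the lowest of its group (6.00 against 7.31 to 7.52), where the brighter was the highest. For Cyp51 both fell at these times (-0.62 and -0.65 for the dimmer), but the dimmer rose from 8 d to 15 d after MRT (0.97, adjusted p = 1.02e-05) where the brighter stood at 0.18. In the rat 18 array the dimmer Cyp51 probe set read 9.04, within the 8.50 to 9.07 of its group, while the brighter was the lowest. For Srebf2 the dimmer probe set stood at 0.03 in MRT tumours at 8 d (adjusted p = 0.82) and at -0.19 at 48 h. Its tumour group means lay between 4.93 and 5.24, a narrow range near the bottom of the scale. In tumours of BB rats at 6 h it stood at 0.18 (adjusted p = 0.179). The calls of Srebf2 in tumours after MRT at 8 d and after BB at 6 h were thus seen with 1 of its 2 probe sets. Several other Srebf2 calls were not seen with the dimmer either. In tumours it stood at -0.18 for MRT against BB at 6 h (adjusted p = 0.125), opposite in sign to the brighter. From 6 h to 8 d it stood at -0.05 after MRT and -0.08 untreated. From 8 d to 15 d after MRT it stood at 0.18. Contralaterally it stood at -0.04 after BB at 6 h and at -0.09 from 6 h to 8 d after MRT, none called. At 48 h after MRT the dimmer did fall contralaterally (-0.31, adjusted p = 0.00822), with rat 18 included. Rat 18 was the highest untreated sample there (5.83, the others 5.17 to 5.55), and the dimmer was not fitted without it. Acat2, Sqle, Msmo1 and Dhcr7 had 1 probe set each.

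**Figure D5:**
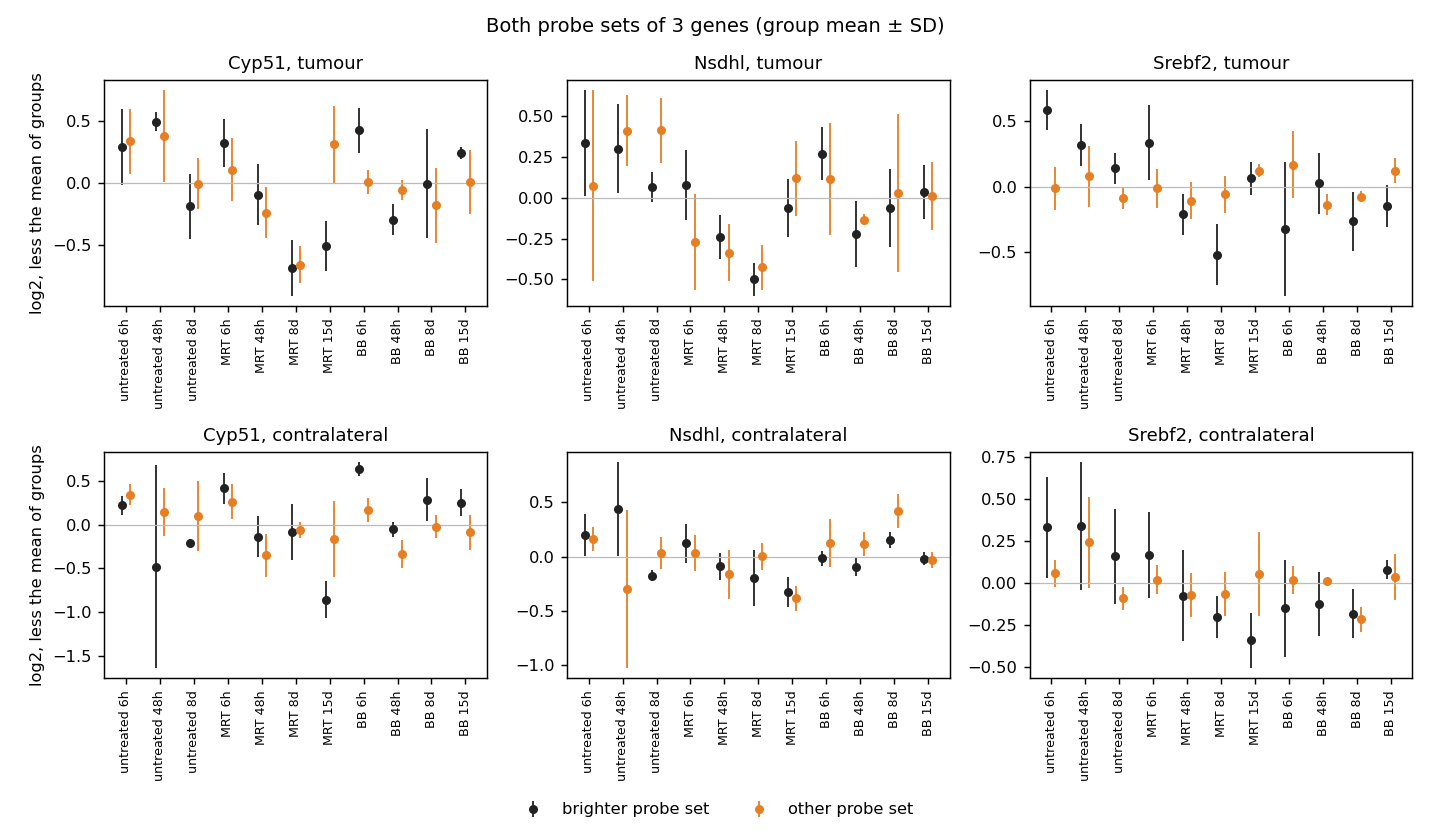
Group means ± SD of the brighter and the other probe set of Cyp51, Nsdhl and Srebf2, each less its own mean over the groups of the tissue, in log2, with rat 18 included. The probe sets of Nsdhl both lie low in MRT tumours at 8 d and those of Cyp51 part at 15 d after MRT. The other probe set of Srebf2 stays near 0 in tumours.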

How the data were processed

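RNA of 59 tumour and 56 contralateral samples from 60 rats was measured on Affymetrix rat expression arrays. The broad-beam dose was 17.4 Gy, per the labels. The authors deposited 1 table of linear intensity values, whole numbers from 7 to 27837 with array medians of 117 to 165. Per the submitters' processing notes, Affymetrix Expression Console, MAS5 and RMA were used, and for the BB samples RMA only, with no versions given. RNA was taken with mirVana and labelled with a 3′ IVT kit, per the labels' protocols. The log2 of the deposited intensity was taken here. Of 31099 probe sets, 57 were controls, 436 had several symbols and 9780 none in the annotation used. The other 20826 gave 14217 genes, each by its brightest probe set (4525 genes had more than 1). The members and lists were chosen with earlier results of these data known.

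Group means were fitted with limma 3.58.1 (R 4.3.3; eBayes with trend), within a tissue or, for comparisons of tissues, over all 115 arrays. P-values were adjusted by Benjamini-Hochberg over all genes, with a call under 0.05. The fit was tested on simulated data. Tables and figures used Python 3.11.15, numpy 2.4.6, pandas 2.3.3 and matplotlib 3.10.9. Named genes were all members, the first genes by p among those called in each pathway list and the 5 genes most like the members' mean. Other genes were named after their values were seen, to complete a short count. Replicate numbers are rat numbers from the labels, and 55 rats gave both tissues. The deviations of their arrays from the group means correlated at a median of 0.186, over 0.1 in 38 rats. Alternatives changed the normalization, the probe set rule, a filter on dim genes, array weights, the arrays fitted, a rat block, and RNA quality or marker covariates; some were added after seeing the data. P-values measure the spread between these rats, and the number of arrays limits the precision.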

Additional observations from a re-analysis of the deposited data

Results flagged for a closer look

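A single array stood apart in 16 of 147 pairs of a member and a group, by the gap to its nearest neighbour as a share of the group's range (above the 95% critical value of Dixon's test). Chance flags about 1 in 20 such pairs, and pairs that share arrays are not independent. In untreated contralateral samples at 48 h, rat 18 was low in Acat2 (7.96, the others 9.26 to 9.50), Cyp51 (8.85, the others 10.88 to 11.29) and Sqle (8.36, the others 9.42 to 9.60). Rat 10 at 6 h after MRT was high in Dhcr7 on both sides, with 9.84 in the tumour (the others 8.60 to 9.12) and 10.17 contralaterally (the others 9.16 to 9.47). Rat 47 at 6 h after BB had a tumour low in Cyp51 (11.21, the others 11.54 to 11.71) and Msmo1 (10.82, the others 11.24 to 11.50). Untreated rat 5 at 6 h had a tumour low in Acat2 (9.34, the others 10.20 to 10.53), and untreated rat 27 at 8 d a tumour high in Nsdhl (9.70, the others 9.50 to 9.53).

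After MRT at 15 d, Msmo1 was high in the tumour of rat 40 (10.99, the others 10.50 to 10.57), Srebf2 low in that of rat 41 (9.28, the others 9.52 to 9.54), and Acat2 high in the contralateral sample of rat 43 (8.79, the others 8.40 to 8.45). At 48 h after MRT, Nsdhl was low in the tumour of rat 20 (8.99, the others 9.23 to 9.40) and Srebf2 in that of rat 23 (8.84, the others 9.14 to 9.34). At 8 d, Msmo1 was high in the contralateral MRT sample of rat 34 (11.01, the others 10.55 to 10.72), and Srebf2 in the contralateral BB sample of rat 56 (10.14, the others 9.84 to 9.86).

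Effects differed between the tissues by the interaction test (limma, adjusted over all genes) in 10 cases. For MRT at 8 d these were Sqle (-1.38), Acat2 (-0.94), Dhcr7 (-0.59), Msmo1 (-0.58) and Nsdhl (-0.55), and for BB at 8 d Sqle (-1.12). At 48 h Acat2 (-0.95 for MRT, -0.998 for BB) and Cyp51 (-0.93 for MRT, -1.22 for BB) differed, and both lost the call without the array of rat 18.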

How the results depend on the processing

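Counts below are of members called, out of 7, named by tissue, treatment and time (against untreated unless another group is named). With arrays shifted to a common median, the count went from 2 to 4 for tumour MRT-BB 8 d, from 1 to 3 for tumour MRT-BB 15 d, from 0 to 1 for contralateral MRT 8 d, from 1 to 2 for contralateral BB 48 h, from 0 to 2 for contralateral MRT-BB 8 d. With quantile normalization, the count went from 2 to 4 for tumour MRT-BB 8 d, from 3 to 6 for tumour untreated 8 d less 6 h, from 0 to 1 for contralateral MRT-BB 8 d. With the dimmest 30% of genes left out, the count went from 1 to 2 for tumour MRT-BB 15 d and contralateral BB 6 h. With only the groups compared in the fit, the count went from 1 to 0 for tumour BB 6 h, tumour BB 8 d, tumour MRT-BB 6 h, contralateral BB 48 h and BB interaction 8 d, from 3 to 1 for tumour BB 48 h, from 2 to 0 for tumour MRT-BB 8 d, MRT interaction 48 h and BB interaction 48 h, from 1 to 2 for tumour MRT-BB 15 d, from 3 to 0 for tumour BB 8 d less 6 h, from 4 to 0 for contralateral MRT 48 h, from 1 to 3 for contralateral BB 6 h, from 0 to 2 for contralateral BB 8 d, from 4 to 7 for contralateral MRT-BB 15 d, from 1 to 4 for contralateral MRT 15 d less 8 d, from 0 to 1 for contralateral BB 8 d less 6 h. With array weights, the count went from 0 to 5 for tumour MRT 6 h, from 1 to 2 for tumour BB 6 h and BB interaction 8 d, from 3 to 5 for tumour BB 48 h, from 1 to 4 for tumour BB 8 d, tumour MRT-BB 15 d and contralateral MRT 15 d less 8 d, from 2 to 7 for tumour MRT-BB 8 d, from 3 to 6 for tumour untreated 8 d less 6 h and tumour BB 8 d less 6 h, from 0 to 6 for tumour BB 15 d less 8 d and contralateral MRT-BB 8 d, from 1 to 3 for contralateral BB 6 h, from 0 to 3 for contralateral BB 8 d, from 0 to 1 for contralateral MRT-BB 6 h, contralateral MRT-BB 48 h, contralateral BB 15 d less 8 d and MRT interaction 6 h, from 4 to 7 for contralateral MRT-BB 15 d, from 2 to 5 for contralateral untreated 8 d less 6 h, from 0 to 2 for contralateral BB 8 d less 6 h, from 2 to 0 for MRT interaction 48 h, from 2 to 1 for BB interaction 48 h. With neuron markers as a covariate, the count went from 1 to 3 for tumour BB 6 h and tumour MRT-BB 15 d, from 3 to 5 for tumour BB 8 d less 6 h, from 0 to 2 for tumour BB 15 d less 8 d, from 1 to 0 for contralateral BB 6 h, from 1 to 2 for contralateral BB 48 h, from 2 to 1 for contralateral untreated 8 d less 6 h, from 5 to 1 for MRT interaction 8 d. With oligodendrocyte markers as a covariate, the count went from 1 to 3 for tumour BB 6 h, from 1 to 0 for tumour BB 8 d and BB interaction 8 d, from 1 to 4 for tumour MRT-BB 15 d, from 5 to 3 for tumour MRT 15 d less 8 d, from 3 to 5 for tumour BB 8 d less 6 h, from 0 to 1 for tumour BB 15 d less 8 d, from 1 to 2 for contralateral BB 6 h, contralateral BB 48 h and contralateral MRT 15 d less 8 d, from 5 to 2 for contralateral MRT 8 d less 6 h, from 5 to 1 for MRT interaction 8 d. With the mean of a gene's probe sets, the count went from 0 to 1 for contralateral BB 8 d and contralateral MRT-BB 8 d, from 2 to 1 for MRT interaction 48 h and BB interaction 48 h, from 1 to 2 for BB interaction 8 d. With the Gapdh 3′ minus 5′ difference as a covariate, chosen after seeing the data, the count went from 3 to 1 for tumour BB 48 h, from 1 to 0 for contralateral BB 6 h and contralateral MRT 15 d less 8 d, from 2 to 1 for BB interaction 48 h. With rat 18 left out, chosen after seeing the data, the count went from 1 to 3 for contralateral BB 6 h, from 1 to 0 for contralateral BB 48 h, from 0 to 2 for contralateral BB 8 d, from 0 to 1 for contralateral MRT-BB 6 h and contralateral MRT-BB 48 h, from 0 to 3 for contralateral MRT-BB 8 d, from 2 to 4 for contralateral untreated 8 d less 6 h, from 1 to 4 for contralateral MRT 15 d less 8 d, from 2 to 0 for MRT interaction 48 h and BB interaction 48 h. With each array of groups of up to 5 left out in turn, the count ranged from 0 to 1 for tumour MRT 6 h, contralateral MRT 15 d less 8 d and contralateral MRT-BB 8 d, from 1 to 2 for tumour BB 6 h and contralateral untreated 8 d less 6 h, from 1 to 6 for tumour untreated 8 d less 6 h, from 0 to 2 for contralateral BB 6 h and tumour BB 8 d, from 2 to 5 for tumour MRT 48 h, from 1 to 4 for tumour BB 48 h, from 0 to 3 for MRT interaction 48 h, BB interaction 48 h, BB interaction 8 d and tumour BB 15 d less 8 d, from 0 to 5 for contralateral BB 48 h, tumour MRT-BB 8 d and tumour BB 8 d less 6 h, from 1 to 3 for tumour MRT-BB 15 d, from 3 to 5 for tumour MRT 15 d less 8 d. With MRT rats 37 and 38 left out, chosen after seeing the data, none of the 5 counts that use them moved by over 1.5 times. The 7 members called in MRT tumours at 8 d stayed at 6 or more under every setting run, and the 4 contralateral ones at 15 d at 4 or more. The cause of each change was not tested, apart from the arrays left out.

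With the rat as a replicate block in the 7 comparisons over both tissues, the counts were 4, 0, 3, 6, 0, 2 and 1, against 4, 0, 2, 5, 0, 2 and 1 without it, for the untreated tissues and the MRT and BB interactions at 6 h, 48 h and 8 d. No call of the block moved a count by over 1.5 times.

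Directions turned in single genes. Untreated tumour against contralateral tissue, Msmo1 was -0.19 and Nsdhl -0.24 with arrays shifted to a common median, and Nsdhl -0.17 with quantile normalization. Srebf2 in BB tumours at 8 d less 6 h was -0.28 with array weights. None of these was called in the main analysis.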
